A study of Mus musculus with 18 samples.

Results

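The CC chemokines described here are 9 genes, *Ccl2*, *Ccl3*, *Ccl4*, *Ccl5*, *Ccl6*, *Ccl7*, *Ccl9*, *Ccl12* and *Ccl22*, taken by their symbol from a table of 56748 genes, of which 27701 had at least 1 count. The same table lists 26 genes whose symbol starts with Ccl, and 15 of them had a count. The RNA came from RAW264.7, an established mouse macrophage cell line. Cells were left untreated (control), exposed to tert-butylhydroquinone (TBHQ, a phenolic antioxidant used as a food preservative) at 5 µM for 4 h, stimulated with lipopolysaccharide (LPS, a bacterial cell wall component) at 0.1 µg/mL for 12 h or with poly(I:C) (PIC, a synthetic double-stranded RNA) at 20 µg/mL for 12 h, or stimulated in the same way after the 4 h of TBHQ (LPS+TBHQ and PIC+TBHQ). Each of the 6 groups had 3 libraries. TBHQ-exposed cells without a stimulus were harvested at the end of the 4 h, so harvest time and TBHQ cannot be told apart in the comparison of TBHQ with the control. The harvest time of the control is not given. TBHQ was dissolved in DMSO, and the methods name no solvent control for these groups. TBHQ, its solvent and the added 4 h step therefore cannot be told apart in any comparison of groups with and without TBHQ, also within a stimulus.

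CC chemokines are small secreted proteins with adjacent cysteines near the amino end. They bind G protein-coupled receptors on leukocytes and draw these cells along a gradient. Macrophages release them when Toll-like receptors meet bacterial or viral products, and their genes are known targets of NF-κB and interferon signalling. *Ccl2*, *Ccl7* and *Ccl12* encode monocyte chemoattractants that act through the receptor Ccr2. *Ccl3*, *Ccl4* and *Ccl5* encode inflammatory chemokines that attract monocytes and T cells, *Ccl6* and *Ccl9* encode ligands of Ccr1, and *Ccl22* encodes a ligand of Ccr4, a receptor found on T cells.

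The libraries held from 14423390 to 18851626 counted fragments. A count of 3 was taken as the floor of detection, which corresponded to 0.159 to 0.208 CPM (counts scaled to the library total) and covers counting error only. Levels are given as FPKM (fragments scaled to gene length and library total), which allows genes of different length to be compared. The authors' FPKM also hold 1 constant for each library, which was higher with PIC than in the control. Differences are given as the log2 fold change (log2FC) of edgeR's quasi-likelihood test on the counts. The standard error (SE) beside a log2FC is from the spread of log2 CPM (prior count 2) over the 3 replicates of each group. It is not the error of edgeR's fit. With few counts the prior count narrows this spread, so the SE can be too small. The FDR is the Benjamini-Hochberg adjusted p over all 13691 genes tested. All 9 members were among the genes tested. The filter on low counts kept *Ccl12* and *Ccl22* mainly for their LPS and PIC libraries. In any library of the other groups *Ccl12* had at most 11 counts and *Ccl22* at most 19. Calls of these 2 as higher with a stimulus or lower with TBHQ can therefore be partly set by the filter. A gene was called at an FDR below 0.05. Macrophage transcripts were present in every library: the 10 markers of that list summed to 5789 to 6765 FPKM per library, led by *Lyz2* (lysozyme) at 3399 to 4647 FPKM. That sum is carried by *Lyz2* and hides changes of single markers. Of the 9 tested, 5 were higher and 3 lower with LPS than in the control (24% and 24.1% of all genes). Against the control, 5 were also higher and 3 lower with PIC (28.6% and 30.1%). TBHQ alone left 1 higher and 4 lower (14.2% and 14.8%). With TBHQ, 3 were higher and 4 lower in LPS (11.7% and 12.2% of all genes), and also 3 higher and 4 lower in PIC (15.8% and 15.5%). The most negative was *Fcgr1*, an Fc receptor (-1.37 ± 0.0811 in LPS and -1.08 ± 0.0808 in PIC), and the most positive *Csf1r*, a growth factor receptor (0.39 ± 0.0374 and 0.45 ± 0.0599). The other marker, *Mertk*, had at most 5 counts in a library. Markers of T and B cells summed to at most 0.338 FPKM, those of dendritic cells to at most 0.421 FPKM and those of fibroblasts, endothelium and epithelium to at most 0.173 FPKM. The only dendritic cell marker tested, *Zbtb46*, had 11 to 26 counts in a library. It was higher with PIC than in the control (0.84 ± 0.0766, FDR = 0.0337, edgeR). The 6 neutrophil markers summed to 0.282 to 6.01 FPKM, most of it *S100a8*, and 3 of the 6 were at 0 in every library. *S100a8* rose with LPS (2.05 ± 0.182) and PIC (2.82 ± 0.169). In bulk RNA, more RNA per cell and more cells that carry it cannot be told apart.

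The 9 genes covered a wide range of levels in untreated cells. *Ccl3* stood highest with a mean of 484.5 FPKM ± 10.2 (SD, n = 3), which placed it at rank 73 of all genes. It was followed by *Ccl4* at 301.1 FPKM ± 45.9, *Ccl9* at 214.7 FPKM ± 13.7 and *Ccl2* at 83.9 FPKM ± 8.60. *Ccl5* (5.80 FPKM ± 1.14) and *Ccl7* (5.17 FPKM ± 1.03) were far lower, and their libraries overlapped. *Ccl6* (0.670 FPKM ± 0.145) came next, and *Ccl12* (0.158 FPKM ± 0.187) and *Ccl22* (0.114 FPKM ± 0.0558) were barely detected and overlapped each other. The order changed in stimulated cells. With LPS, *Ccl2* rose from the fourth place to the second, and *Ccl3* reached rank 5 of all genes. With PIC, *Ccl3* reached rank 3, *Ccl2* rank 10, *Ccl4* rank 13, *Ccl9* rank 25 and *Ccl5* rank 49. After TBHQ, *Ccl4* stood above *Ccl2* again in both stimulated groups, as in the control. In LPS+TBHQ the libraries of *Ccl5* and *Ccl7* overlapped again, while in LPS and in PIC they were apart.

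**Figure D1:**
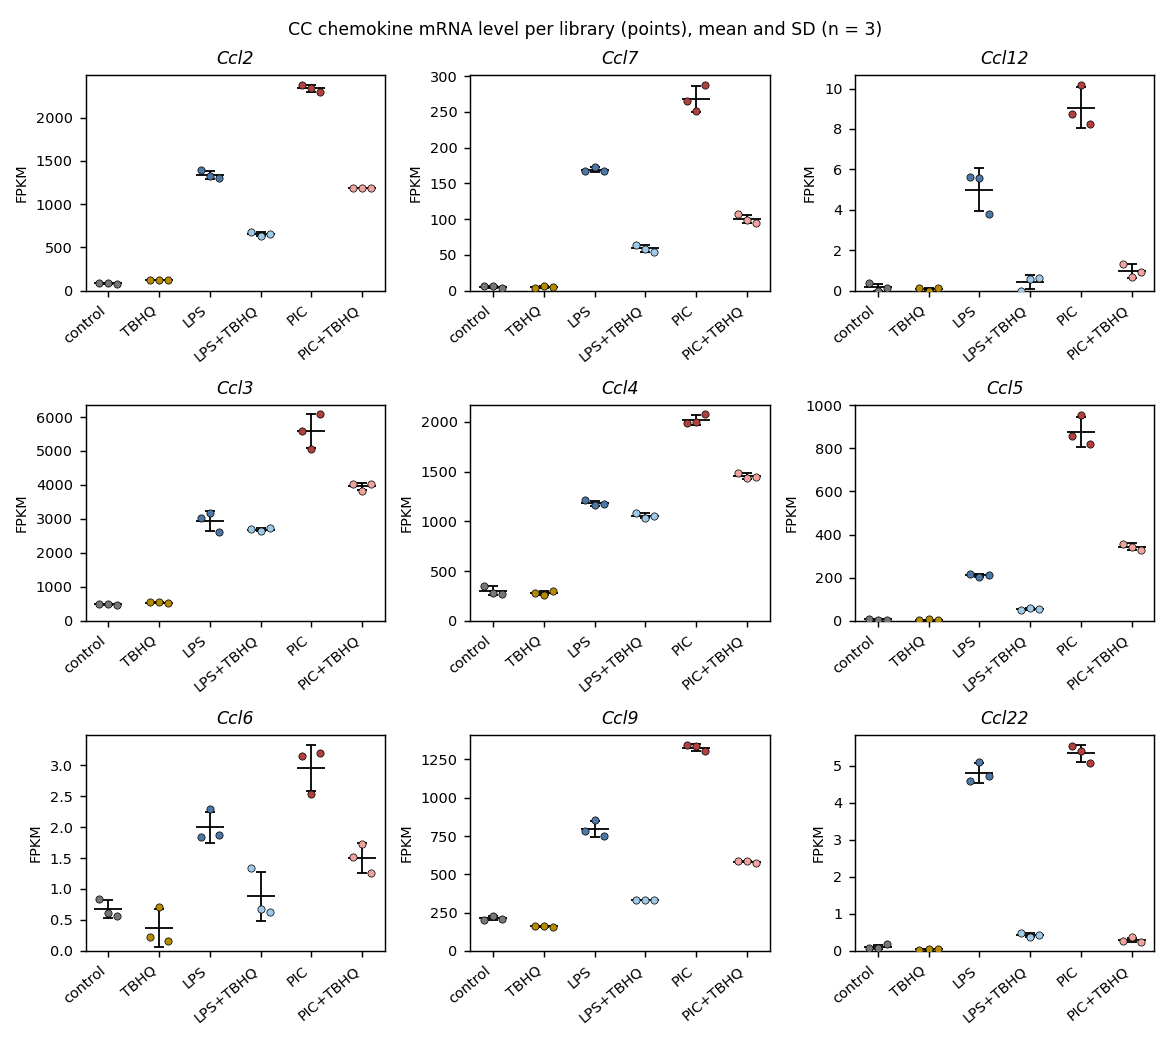
FPKM of the 9 CC chemokine genes in each of the 18 libraries (points) by group, with the mean and SD of the 3 libraries (black); each panel has its own linear axis that starts at 0. Every gene has its highest mean with PIC, and *Ccl12* and *Ccl22* lose most of their level after TBHQ, whereas *Ccl3* in LPS+TBHQ (2684 FPKM) lies near LPS (2933 FPKM).

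Summed over the 9 genes, the family took 0.359% ± 0.0176 of all FPKM in the control (SD, n = 3). The share was 2.04% ± 0.125 with LPS and 3.41% ± 0.139 with PIC. With TBHQ alone it was 0.374% ± 0.00370, and the libraries of TBHQ (0.371% to 0.378%) lay within the range of the control (0.344% to 0.379%). This holds for FPKM only: of all counts, the 9 genes took 0.127% to 0.131% with TBHQ, below every control library (0.135% to 0.144%). After TBHQ the stimulated shares were lower, at 1.53% ± 0.0216 with LPS and 2.24% ± 0.0307 with PIC, and no library of these groups reached the range of its stimulus alone. The make-up of the sum also shifted. *Ccl3* held 44.1% ± 2.04 of the family's FPKM with LPS and 55.4% ± 0.445 in LPS+TBHQ, and 44.8% ± 2.41 with PIC and 51.9% ± 0.646 in PIC+TBHQ. *Ccl9* held 19.6% ± 1.82 in the control, 12.0% ± 0.419 with LPS and 6.87% ± 0.0710 in LPS+TBHQ. *Ccl5* went from 0.528% ± 0.0860 in the control to 3.18% ± 0.223 with LPS and 7.08% ± 0.820 with PIC. These shares are descriptions without a test.

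The first comparisons asked which chemokine genes responded to each stimulus. With LPS, 9 of the 9 members were higher than in the control, against 24% of all genes tested called higher and 24.1% called lower. The median log2FC of the members was 3.99 and that of all genes tested was -0.00396. With PIC, 9 of 9 were also higher, where 28.6% of all genes were called higher and 30.1% lower, and the members' median was 4.79 against -0.0146. The study's methods ask for more against the control, an FDR under 0.01 together with a log2FC over 2. By these stricter limits, 6 members passed with LPS (1.34% of all genes) and 9 with PIC (2.7% of all genes). *Ccl4* (1.97), *Ccl9* (1.88) and *Ccl6* (1.57) fell short of the fold limit with LPS. With counts scaled to the total library size in place of TMM, the median of all genes moved by -0.217 on the log2 scale in PIC and by -0.088 in LPS. Of all genes called, 35.0% were then higher with LPS (49.8% with TMM) and 26.4% with PIC (48.7% with TMM), while the 9 members stayed higher in both. In both comparisons edgeR called 0 members lower, also at an unadjusted p under 0.05, and DESeq2 and limma called 0. Both comparisons use the same 3 control libraries.

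*Ccl2* was measured at 92.4, 84.0 and 75.2 FPKM in the control libraries, at 1394, 1321 and 1302 with LPS and at 2382, 2339 and 2292 with PIC. The groups were far apart, and the replicates of each lay close together. The log2FC was 3.99 ± 0.0913 (SE, FDR = 1.51e-37, edgeR) with LPS and 4.79 ± 0.0884 (FDR = 5.28e-40) with PIC. *Ccl7*, its neighbour on the chromosome, stood at 5.86, 5.67 and 3.99 FPKM in the control, at 166.7, 173.4 and 167.4 with LPS and at 265.1, 251.3 and 287.9 with PIC. This gene started low and gained more, with a log2FC of 5.03 ± 0.174 with LPS and 5.69 ± 0.181 with PIC. *Ccl12* had 3, 0 and 1 counts in the control, 43, 43 and 29 with LPS and 64, 76 and 75 with PIC. All stimulated libraries lay above all control libraries. Because the control held only 4 counts, the ratio of counts per library total was imprecise: 30.5 with a 95% exact interval of 11.6 to 113.7 for LPS, and 49.9 with an interval of 19.2 to 184.6 for PIC, both for counting error only.

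*Ccl3* was measured at 495.6, 482.4 and 475.4 FPKM in the control, at 3024, 3167 and 2609 with LPS and at 5581, 5073 and 6081 with PIC. It was the most abundant member in all 6 groups. Its log2FC was 2.59 ± 0.0869 (SE, FDR = 1.3e-30, edgeR) with LPS and 3.51 ± 0.0769 (FDR = 1.27e-34) with PIC. *Ccl4* covered 267.2 to 353.3 FPKM in the control, 1163 to 1210 with LPS and 1990 to 2081 with PIC, a log2FC of 1.97 ± 0.125 and 2.73 ± 0.125. *Ccl5*, a chemoattractant of T cells and monocytes, stood at 6.99, 4.73 and 5.67 FPKM in the control, at 217.7, 203.2 and 211.4 with LPS and at 855.4, 954.7 and 821.1 with PIC. Its log2FC with PIC, 7.23 ± 0.172 (FDR = 7.91e-39), was the largest of the 9 members in that comparison, and with LPS it was 5.18 ± 0.162.

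*Ccl9* was present in untreated cells at 204.2, 230.1 and 209.7 FPKM. It reached 785.2, 851.6 and 751.4 with LPS and 1345, 1335 and 1302 with PIC, a log2FC of 1.88 ± 0.0755 and 2.61 ± 0.0545 (SE). *Ccl6* was a minor transcript with 17 to 23 counts in the control, 47 to 59 with LPS and 63 to 97 with PIC. The groups did not overlap, and the log2FC was 1.57 ± 0.187 (FDR = 5.38e-05, edgeR) with LPS and 2.13 ± 0.19 (FDR = 9.11e-08) with PIC. *Ccl22* had 3, 3 and 7 counts in the control, 151, 170 and 157 with LPS and 175, 174 and 200 with PIC. The response was large from a very low start, with a log2FC of 5.33 ± 0.262 with LPS and 5.47 ± 0.26 with PIC. The control's 13 counts in all leave this size uncertain: the ratio of counts per library total was 39.0 with a 95% exact interval of 22.6 to 73.7 for LPS.

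The comparison of PIC with LPS asked whether the 2 stimuli differed at the doses used, which are not matched. Higher levels with PIC were called for 7 of 9 members, where 14.9% of all genes were called higher and 12.8% lower. The median log2FC was 0.76 for the members and -0.00866 for all genes. *Ccl5* differed most, with a log2FC of 2.05 ± 0.0707 (SE, FDR = 2.36e-26, edgeR) and a mean with PIC that was 416.1% of the mean with LPS. The log2FC of *Ccl2*, *Ccl3*, *Ccl4*, *Ccl7*, *Ccl9* and *Ccl12* lay between 0.66 and 0.92. *Ccl22* (0.14 ± 0.06, FDR = 0.502) had overlapping libraries, and *Ccl6* (0.55 ± 0.145, FDR = 0.103) missed the threshold although its libraries with PIC lay above those with LPS. When only these 2 groups were fitted, *Ccl6* passed (FDR = 0.0331). The call of *Ccl12* (0.84 ± 0.201, FDR = 0.0271) was lost with DESeq2 (FDR = 0.0533), with limma on log2(FPKM + 0.1) (FDR = 0.355), and without LPS replicate 3 (0.68, FDR = 0.137), PIC replicate 1 (0.87, FDR = 0.0559) or PIC replicate 2 (0.76, FDR = 0.11). With total library size the median of all genes moved by -0.129 and the share of higher genes among those called fell from 53.7% to 18.4%, and the direction of the 9 members was unchanged.

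With TBHQ alone, few members were called. Of the 9, 2 were called higher and 1 lower, where 14.2% of all genes were called higher and 14.8% lower, so the members' share was near the background. *Ccl2* rose to 120.1, 125.5 and 123.5 FPKM, above all control libraries, by a log2FC of 0.55 ± 0.0887 (SE, FDR = 7.27e-12, edgeR). *Ccl9* fell to 161.0, 165.5 and 154.8 FPKM, below all control libraries, by 0.42 on the log2 scale (SE 0.0601, FDR = 8.54e-11). *Ccl3* was higher by 0.14 ± 0.0323 (FDR = 0.0383), a call that was lost with DESeq2 (FDR = 0.122), with limma on either FPKM scale (FDR = 0.147 and 0.148), and without control replicate 2 (0.13) or 3 (0.12) or TBHQ replicate 1 (0.12) or 2 (0.12), at FDRs of 0.0906 to 0.126. *Ccl4* (-0.12 ± 0.134, FDR = 0.101) and *Ccl22* (-1.37 ± 0.292, FDR = 0.122) did not pass. The libraries of *Ccl22* (1, 2 and 2 counts) lay below those of the control, with too few counts to measure the size. *Ccl4* passed without control replicate 2 (-0.17) or 3 (-0.20) or TBHQ replicate 3 (-0.17), at FDRs of 0.00592 to 0.0471, and with no filter on low counts (FDR = 0.00437), while without control replicate 1 its log2FC was 0.01. *Ccl22* passed with limma on log2(FPKM + 0.1) (-0.56, FDR = 0.0226). *Ccl6* had 7, 21 and 5 counts (-0.86 ± 0.557, FDR = 0.107) and passed without TBHQ replicate 2 (-1.75, FDR = 0.00416). *Ccl12* had at most 3 counts in any library of the 2 groups, too few to read a fold from. At an unadjusted p under 0.05, 2 members were higher and 4 lower. The share of all genes at this unadjusted limit was not determined, so these counts have no background to be read against.

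The comparisons within each stimulus asked what the 4 h of TBHQ before stimulation changed. All 9 members were called lower in LPS+TBHQ than in LPS, where 12.2% of all genes were called lower and 11.7% higher, and all 9 were called lower in PIC+TBHQ than in PIC, where 15.5% were called lower and 15.8% higher. The median log2FC of the members was -1.26 with LPS and -1.18 with PIC, against 0.00229 and 0.0089 for all genes tested. The sizes ranged widely, from the small losses of *Ccl3* and *Ccl4* to the large losses of *Ccl12* and *Ccl22*. Among the 13691 genes tested, *Ccl22* had the lowest log2FC of all in PIC+TBHQ against PIC (rank 1), and *Ccl12* stood at rank 6. In LPS+TBHQ against LPS, *Ccl12* stood at rank 7 and *Ccl22* at rank 11 from the lowest, whereas *Ccl3* stood at rank 3655. *Ccl12* and *Ccl22* were kept by the filter mainly for LPS and PIC, where they were high, so their ranks are descriptions. With no filter both were still called lower in each stimulus. No member was called higher by edgeR in either comparison, 0 were higher at an unadjusted p under 0.05, and DESeq2 and limma called 0 higher. With other tools, scalings and filters or a library left out, the count of members called lower was 7 to 9 with LPS and with PIC. With PIC it stayed at 9 on leaving out a library, and no call was lost. The 7 there came from the filter of at least 50 counts, which removed *Ccl6* and *Ccl12*. With LPS the calls of *Ccl3* and *Ccl4* were lost in several settings. Only 2 members, *Ccl12* and *Ccl22*, were lower in each at the stricter limits (FDR under 0.01, |log2FC| over 2), where 0.351% of all genes were lower with LPS and 0.241% with PIC. With total library size the called genes were higher in 59.5% of cases with LPS (48.9% with TMM) and 70.3% with PIC (50.6% with TMM), and the direction of every member was still lower.

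**Figure D2:**
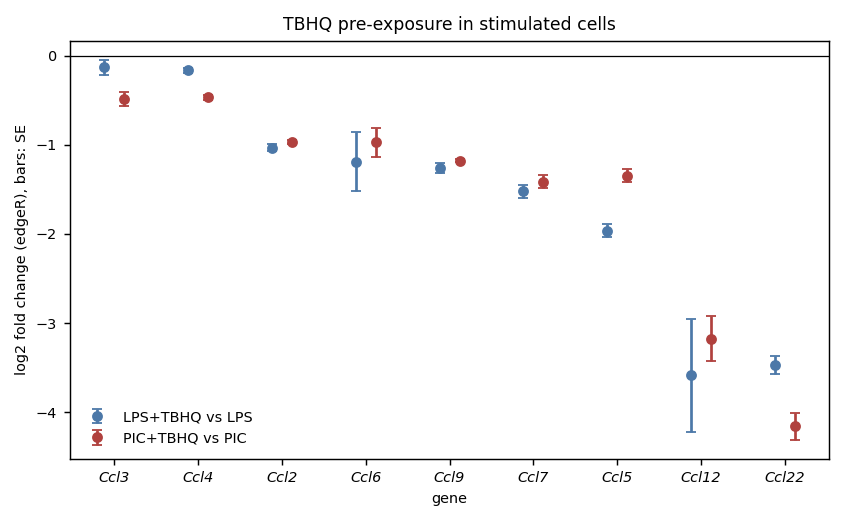
Log2 fold change with TBHQ pre-exposure for the 9 genes in LPS-stimulated (blue) and PIC-stimulated cells (red), with the SE from 3 against 3 libraries. All points lie below 0, from -0.13 for *Ccl3* with LPS to -4.16 for *Ccl22* with PIC, and the difference between blue and red passed the test for *Ccl3*, *Ccl4* and *Ccl5*.

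Among the monocyte chemoattractants, *Ccl2* stood at 679.3, 634.8 and 650.4 FPKM in LPS+TBHQ and at 1180, 1189 and 1190 in PIC+TBHQ. These values were 48.9% ± 1.42 (SE) of the mean with LPS and 50.7% ± 0.574 of the mean with PIC, and a difference between the stimuli in this effect was not detected. *Ccl7* stood at 64.3, 58.7 and 54.1 FPKM in LPS+TBHQ and at 106.4, 98.8 and 94.8 in PIC+TBHQ, a log2FC of -1.52 ± 0.0743 (FDR = 1.4e-20, edgeR) and -1.41 ± 0.0741 (FDR = 2.56e-20). *Ccl12* had 0, 5 and 6 counts in LPS+TBHQ and 11, 5 and 8 in PIC+TBHQ. Every library lay below those of the stimulus alone, and the fitted log2FC of -3.59 ± 0.633 (FDR = 1.01e-07) and -3.18 ± 0.253 (FDR = 1.35e-08) rests on these few counts. Per library total, LPS held 12.2 times the counts of LPS+TBHQ, with a 95% exact interval of 6.58 to 25.2.

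*Ccl3*, *Ccl4* and *Ccl5* differed from each other. *Ccl3* was measured at 2693, 2643 and 2717 FPKM in LPS+TBHQ, within the range of the LPS libraries, and at 4016, 3833 and 4021 in PIC+TBHQ, below all PIC libraries. Its log2FC was -0.13 ± 0.0858 (SE, FDR = 0.0447, edgeR) with LPS and -0.48 ± 0.0785 (FDR = 3.69e-10) with PIC. The call with LPS was lost with DESeq2 (FDR = 0.183), total library size (FDR = 0.11) and limma on either FPKM scale (FDR = 0.212 and 0.216), and it was lost without LPS replicate 1 (-0.11) or 2 (-0.07) or LPS+TBHQ replicate 1 (-0.13), 2 (-0.12) or 3 (-0.14), at FDRs of 0.0722 to 0.363. Across all other settings tried, the log2FC of *Ccl3* with LPS ranged from -0.21 to -0.07. *Ccl4* ranged from 1033 to 1079 FPKM in LPS+TBHQ and from 1431 to 1486 in PIC+TBHQ, below the libraries of each stimulus alone. It fell by 0.16 on the log2 scale (SE 0.0235, FDR = 0.0192) with LPS and by 0.46 (SE 0.0261, FDR = 6.41e-09) with PIC. For *Ccl4* with LPS the call was lost with DESeq2 (FDR = 0.148), with limma on either FPKM scale (FDR = 0.135 and 0.137), and without LPS replicate 1 (-0.15) or LPS+TBHQ replicate 2 (-0.15) or 3 (-0.17), at FDRs of 0.05 to 0.082. *Ccl5* stood at 49.3, 57.7 and 55.6 FPKM in LPS+TBHQ and at 357.9, 344.1 and 326.8 in PIC+TBHQ. It kept 25.7% of its level with LPS and 39.1% with PIC, a log2FC of -1.96 ± 0.0737 (SE, FDR = 3.34e-24) and -1.34 ± 0.0755 (FDR = 3.49e-21).

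*Ccl9*, abundant in every group, stood at 335.6, 330.4 and 331.3 FPKM in LPS+TBHQ and at 584.8, 585.6 and 576.7 in PIC+TBHQ. The replicates were tight, and the share kept was 41.8% ± 1.56 (SE) with LPS and 43.9% ± 0.478 with PIC. *Ccl6* had 40, 20 and 20 counts in LPS+TBHQ and 42, 44 and 36 in PIC+TBHQ, a log2FC of -1.19 ± 0.334 (FDR = 0.00214, edgeR) and -0.97 ± 0.166 (FDR = 0.00373). *Ccl22* had 19, 15 and 17 counts in LPS+TBHQ and 10, 12 and 9 in PIC+TBHQ, against at least 151 in any library of the stimulus alone. Its log2FC was -3.47 ± 0.0992 (FDR = 1.09e-16) with LPS and -4.16 ± 0.149 (FDR = 7.51e-18) with PIC. Counting error leaves these sizes less certain than the SE shows. Per library total, LPS held 10.95 times the counts of LPS+TBHQ, with a 95% exact interval of 8.19 to 14.92. PIC held 17.18 times those of PIC+TBHQ, with an interval of 11.96 to 25.54.

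Whether the TBHQ effect differed between the stimuli was tested by the difference of the log2FC, PIC minus LPS. For 2 members the effect was more negative with PIC and for 1 it was less negative, where 1.01% of all genes were called lower and 0.825% higher. The difference was -0.35 ± 0.116 (SE, FDR = 0.00173, edgeR) for *Ccl3*, -0.30 ± 0.0351 (FDR = 0.0238) for *Ccl4* and 0.62 ± 0.106 (FDR = 1.94e-06) for *Ccl5*. The other 6 did not pass, among them *Ccl22* (-0.69 ± 0.179, FDR = 0.345) and *Ccl2* (0.07 ± 0.044, FDR = 0.657). The call of *Ccl4* was lost with DESeq2 (FDR = 0.088) and limma (FDR = 0.17 and 0.182), and without LPS+TBHQ replicate 1 (-0.29) or PIC+TBHQ replicate 2 (-0.29) or 3 (-0.30), at FDRs of 0.0507 to 0.0653. The call of *Ccl3* was lost with limma on either FPKM scale (FDR = 0.0712 and 0.0788) and that of *Ccl5* with limma on log2(FPKM + 0.1) (FDR = 0.067). Over all genes, 45.0% of the calls were higher with TMM, 76.1% with total library size, 29.1% with DESeq2 and 32.5% with limma on log2(FPKM + 1).

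Set against the control, cells stimulated after TBHQ still carried raised chemokine mRNA. In LPS+TBHQ, 7 of 9 members were higher, where 21.2% of all genes were called higher and 22.5% lower, and 4 passed the stricter limits (0.84% of all genes). *Ccl6* (0.38 ± 0.356, FDR = 0.387, edgeR) and *Ccl12* (0, 5 and 6 counts against 3, 0 and 1) did not pass. In PIC+TBHQ, 9 of 9 were higher, where 26.4% of all genes were called higher and 26% lower, and 6 passed the stricter limits (1.76% of all genes). *Ccl6* (1.15 ± 0.203, FDR = 0.00247) and *Ccl22* (1.31 ± 0.295, FDR = 0.00776) had the smallest log2FC there, and *Ccl5* had the largest, at 5.88 ± 0.164. The share of higher genes among all called went from 48.4% to 36.1% in LPS+TBHQ and from 50.4% to 30.0% in PIC+TBHQ under total library size, with a shift of the median by -0.149 in the latter. Between the 2 groups, PIC+TBHQ against LPS+TBHQ, 6 of 9 members were higher, where 11.9% of all genes were called higher and 8.39% lower. *Ccl5* again differed most, at 2.67 ± 0.0784 (FDR = 2.49e-28). *Ccl22* had the opposite sign without passing (-0.55 ± 0.168, FDR = 0.238), its PIC+TBHQ libraries lying below those of LPS+TBHQ, and *Ccl12* (1.26 ± 0.651, FDR = 0.147) did not pass. *Ccl6* (0.77 ± 0.343, FDR = 0.0677) passed without LPS+TBHQ replicate 1 (1.19, FDR = 0.0103) and with no filter on low counts (FDR = 0.041). Under total library size 25.6% of the called genes were higher in place of 58.5%.

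Of the 9 genes, 8 lie on chromosome 11 and *Ccl22* lies on chromosome 8 (95472218 to 95478327, + strand). The positions are those of the authors' files. Both GRCm38 and mm39 are named in the submitters' processing notes, and the starts of all 9 genes differ from GENCODE's annotation of GRCm38. On chromosome 11 the genes form 2 groups with 1422377 bases between them. *Ccl2* (81926397 to 81928279), *Ccl7* (81936538 to 81938351) and *Ccl12* (81992671 to 81994226), all on the + strand, span 67830 bases. *Ccl11*, which lies between *Ccl7* and *Ccl12*, had 0 counts in all 18 libraries. The other group spans 138906 bases and holds *Ccl5* (83416604 to 83421344), *Ccl9* (83463745 to 83469462), *Ccl6* (83478708 to 83483913) and *Ccl3* (83538670 to 83540181) on the − strand and *Ccl4* (83553410 to 83555509) on the + strand. Along this group, in the order *Ccl5*, *Ccl9*, *Ccl6*, *Ccl3* and *Ccl4*, the share of the level kept after TBHQ was 25.7%, 41.8%, 44.0%, 91.5% and 89.4% with LPS. With PIC it was 39.1%, 43.9%, 50.8%, 70.9% and 72.0%. A relation of the TBHQ effect to position was not tested.

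**Figure D3:**
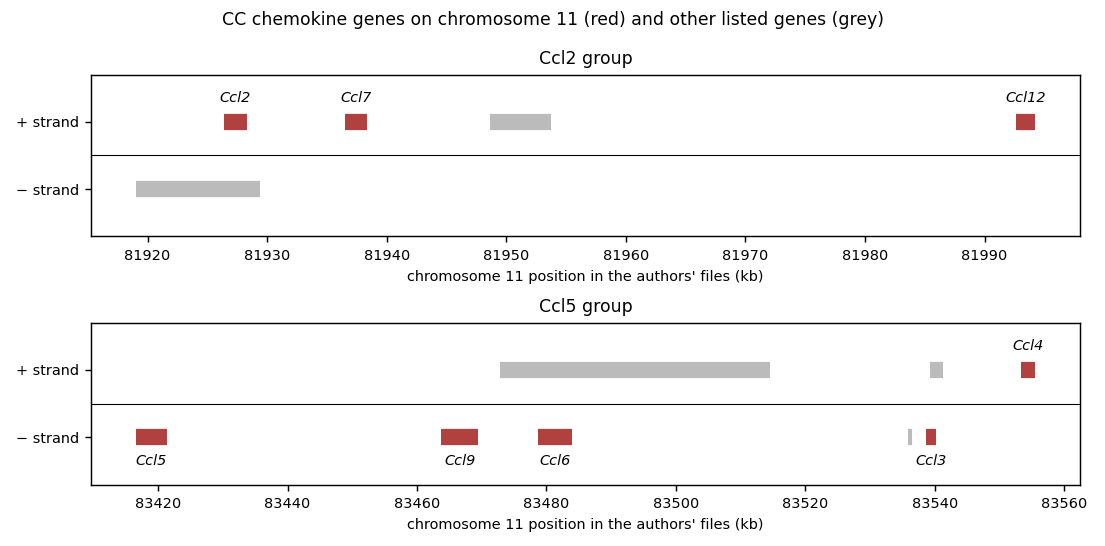
Map of the CC chemokine genes on chromosome 11 (red) with the other listed genes (grey), by strand and position in kb as given in the authors' files. *Ccl2*, *Ccl7* and *Ccl12* lie in a span of 67830 bases, and *Ccl5*, *Ccl9*, *Ccl6*, *Ccl3* and *Ccl4* in a span of 138906 bases.

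Some counts could be shared between overlapping genes, since the use of strand in counting is not given in the sources used here. A long noncoding RNA gene without a symbol lies on the strand opposite to *Ccl3* and overlaps it. It had 7877 counts in all against 569211 of *Ccl3*, 5.09% to 5.92% of the *Ccl3* count in the control and 0.842% to 0.963% with PIC. *Ccl6* (684 counts in all) overlaps the antisense transcript E230016K23Rik (212 counts), so a larger share of its counts could come from an antisense transcript. *Ccl2* overlaps Gm17268, which had 0 counts. Of the 50-base words of *Ccl9*, 1.97% also occur in another gene, and none did for the other 8.

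The promoters of the members are shown because the size of the change differed between the genes, with each stimulus and with TBHQ. RefSeq's table for GRCm38.p6 held a promoter for 5 of the 9 members, *Ccl3*, *Ccl6*, *Ccl9*, *Ccl12* and *Ccl22*. The 250 bases before the start were searched on both strands for the NF-κB consensus, for GAAANNGAA (the core of the interferon-stimulated response element), for TGANTCA (AP-1), for TGACNNNGC (the core of the antioxidant response element) and for TATAAA. Of 32851 promoters of the same length, 3.90% held the NF-κB consensus, 7.13% GAAANNGAA, 6.75% TGANTCA, 10.2% TGACNNNGC and 12.4% TATAAA. In *Ccl9*, where each copy of TATAAA on the opposite strand reads TTTATA, the capitals mark the NF-κB match at -35 to -26, the AP-1 match at -53 to -47 and the TATA matches. In *Ccl3* they mark GAAANNGAA on the opposite strand at -39 to -31, and in *Ccl12* TATAAA at -31 to -26. *Ccl6* and *Ccl22* held none of these letters in this window. Coordinates of the printed promoters are those of GRCm38.p6, and each is written along the strand of its gene.
*Ccl3* (chr11:83649379-83649628, − strand): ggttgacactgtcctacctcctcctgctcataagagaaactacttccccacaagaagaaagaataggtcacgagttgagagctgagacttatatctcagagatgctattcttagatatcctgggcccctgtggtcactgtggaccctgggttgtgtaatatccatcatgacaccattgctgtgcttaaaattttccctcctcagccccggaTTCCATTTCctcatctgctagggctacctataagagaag
*Ccl9* (chr11:83578637-83578886, − strand): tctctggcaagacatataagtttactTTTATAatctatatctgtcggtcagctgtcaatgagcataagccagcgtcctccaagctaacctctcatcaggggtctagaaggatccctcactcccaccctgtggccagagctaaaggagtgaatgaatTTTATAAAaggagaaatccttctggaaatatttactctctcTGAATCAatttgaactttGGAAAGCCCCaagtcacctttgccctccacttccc
*Ccl12* (chr11:82101595-82101844, + strand): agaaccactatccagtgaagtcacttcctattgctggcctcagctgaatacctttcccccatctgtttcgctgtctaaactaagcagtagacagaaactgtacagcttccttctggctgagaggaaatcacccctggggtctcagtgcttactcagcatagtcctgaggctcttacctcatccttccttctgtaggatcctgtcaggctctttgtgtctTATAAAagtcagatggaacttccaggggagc
*Ccl22* (chr8:94745434-94745683, + strand): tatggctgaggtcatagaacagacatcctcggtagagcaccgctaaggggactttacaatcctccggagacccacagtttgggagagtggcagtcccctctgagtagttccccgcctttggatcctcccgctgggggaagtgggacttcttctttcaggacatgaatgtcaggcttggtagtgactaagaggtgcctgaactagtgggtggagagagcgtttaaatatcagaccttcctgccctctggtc

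The genes whose pattern over the 18 libraries was most like each member were sought among the other tested genes (10450 or 10451) with a mean of at least 50 counts, by Pearson's r of log2 CPM. The libraries fall into 6 groups, so r mostly follows the group means and is given as a description. The neighbours of *Ccl2* were *Plagl2* (r = 0.997), *Ier3* (0.997) and *Socs3* (0.997), and those of *Ccl7* were *Glrx* (0.997), *Sesn2* (0.994) and *Osgin2* (0.993). *Ccl3* and *Ccl4* were near each other (0.995) and shared *Plk2* as their nearest gene (0.996 and 0.998), with *Pi4k2b* (0.994) also near *Ccl3* and *Daam1* (0.995) near *Ccl4*. The nearest genes to *Ccl5* were *Traf1* (0.996), *Hk1* (0.993) and *Cd274* (0.993), and to *Ccl9* *Ptpn22* (0.994), *Gadd45b* (0.993) and *Cd80* (0.992). The 3 members with few counts had lower values: *Ccl6* with *Trim34a* (0.953), *Rasgrp4* (0.948) and *Kdm4b* (0.933), *Ccl12* with *Psma6* (0.970), *Chka* (0.966) and *Irf9* (0.965), and *Ccl22* with *Cd47* (0.969), *Slfn10-ps* (0.967) and *Asph* (0.966). Between members, r was lowest for *Ccl3* with *Ccl22* (0.766).

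Of 12 other CC chemokine ligands, 6 had a count and only *Ccl25* was tested. *Ccl25* had 0.989 FPKM ± 0.0872 (SD, n = 3) in the control and was not called in any of the 10 comparisons, with log2FC from -0.22 to 0.29. *Ccl17*, which like *Ccl22* encodes a ligand of Ccr4, had at most 7 counts in a library. Of 10 CC chemokine receptors, 5 were tested. *Ccr1*, the receptor of several members, was the most abundant at 10.3 FPKM ± 0.474 in the control and 4.30 FPKM ± 0.210 with TBHQ alone, a log2FC of -1.26 ± 0.0537 (SE, FDR = 5.78e-14, edgeR). It was also lower in LPS+TBHQ than in LPS (-0.55 ± 0.097, FDR = 1.95e-06) and in PIC+TBHQ than in PIC (-0.62 ± 0.0737, FDR = 1.09e-07). *Ccr2* fell with TBHQ alone (-0.68 ± 0.13, FDR = 0.00172). *Ccr3* (1.38 ± 0.358, FDR = 0.0152) and *Ccr10* (0.54 ± 0.119, FDR = 0.0264) were higher with LPS, and neither was called within a stimulus. *Ccr6*, *Ccr7* and *Ccr8* were at 0 in every library. Of the 4 atypical receptors, *Ccrl2* stood out, with 2.26 FPKM ± 0.337 in the control, 8.79 ± 0.412 with LPS, 54.2 ± 3.15 with PIC and 20.5 ± 0.916 in PIC+TBHQ. It was lower with TBHQ in both stimuli (-1.22 ± 0.0402 with LPS and -1.39 ± 0.0614 with PIC). *Ackr4* was called only with PIC against the control (1.39 ± 0.22, FDR = 0.0193).

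Lists of regulators of such genes were read beside the members. Of 11 NF-κB subunits and feedback inhibitors, 10 rose with LPS (24% of all genes) and 11 with PIC (28.6% of all genes). With TBHQ alone 7 were higher and 1 lower, where 14.2% and 14.8% of all genes were. In LPS+TBHQ 9 were lower than in LPS (12.2% of all genes) and in PIC+TBHQ 7 were lower than in PIC (15.5% of all genes), with medians of -0.29 and -0.47. *Nfkbiz* (-0.54 ± 0.0487 with LPS and -0.92 ± 0.0412 with PIC) and *Tnfaip3* (-0.53 ± 0.0378 and -0.83 ± 0.0213), a cofactor and a feedback inhibitor, had the most negative values in both. The smallest losses called were those of *Nfkbib* (-0.19 ± 0.039) and *Nfkb1* (-0.25 ± 0.0374) with LPS, and of *Nfkbie* (-0.22 ± 0.137) and *Nfkb1* (-0.47 ± 0.0142) with PIC. For 6 of the 11 the TBHQ effect was more negative with PIC, as it was for 1.01% of all genes. Of 8 interferon regulatory and STAT factors, 7 were lower in each of these comparisons, against the same shares of all genes, with medians of -0.47 and -0.38. With TBHQ alone 1 was higher and 4 lower. *Irf7* fell by 1.38 on the log2 scale (SE 0.04) with LPS and by 0.75 (SE 0.0353) with PIC, and this difference of 0.63 ± 0.0534 (FDR = 3.59e-10, edgeR) had the same sign as that of *Ccl5*. *Stat2* (-0.80 ± 0.0619) was next with LPS. The effect on *Stat2* was also less negative with PIC (0.28 ± 0.0856, FDR = 0.028). *Irf3* was higher in PIC+TBHQ than in PIC (0.20 ± 0.0389, FDR = 0.0117), and the smallest losses were those of *Irf8* (-0.23 ± 0.0596) and *Irf9* (-0.30 ± 0.0509) with LPS and *Irf9* (-0.22 ± 0.0457) with PIC. Of 10 mRNA decay and stability factors, 2 were lower and 1 higher in LPS+TBHQ than in LPS, near the shares of all genes (12.2% and 11.7%). In PIC+TBHQ 3 were lower and 2 higher than in PIC, where 15.5% and 15.8% of all genes were, and with TBHQ alone 4 were higher and 1 lower. *Zfp36*, which promotes the decay of AU-rich mRNAs, was lower (-0.72 ± 0.0384 and -0.96 ± 0.0479) and *Zfp36l2*, of the same family, was higher (0.76 ± 0.11 and 0.70 ± 0.142). *Hnrnpd* (-0.11 ± 0.0258) was lower with LPS, while with PIC *Zc3h12a* (-0.38 ± 0.042) was lower and *Khsrp* (0.13 ± 0.0398) higher. The part of these changes in those of the chemokines was not tested.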

How the data were processed

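RNA from RAW264.7 cells was sequenced in strand-specific, poly(A)-selected, paired-end libraries. HISAT2 2.0.5, StringTie 1.3.3b and featureCounts 1.5.0-p3 are named in the submitters' processing notes. The authors deposited raw counts per gene. The authors also deposited FPKM, which equalled counts over gene length and library total multiplied by 1 constant for each library (0.943 to 1.12). The constant followed the group, with 0.943 to 0.951 in the control and 1.112 to 1.116 with PIC. Ratios of FPKM between groups include it. The labels name separate replicates. Libraries of a group differed by more than sampling noise.

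Counts were tested in edgeR 4.0.16 (R 4.3.3) with filterByExpr, TMM, glmQLFit and glmQLFTest in 1 fit over 18 libraries, with Benjamini-Hochberg adjustment over 13691 genes. Log2 CPM used a prior count of 2. The code was tested on simulated data. There, changed genes with few counts were often missed, so the first limit for recovery over all genes was not met. It was replaced by a limit split by mean count, which was met. A member with few counts that was not called can therefore have changed. Alternatives were DESeq2 1.42.0, limma 3.58.1 on log2(FPKM + 1) and log2(FPKM + 0.1), other size factors, filters, limits and groups in the fit, a replicate factor, and leaving out each library.

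The members and lists were chosen with earlier results of these data known. Named genes were the members, tested ligands and receptors, the 3 genes most like each member, and the 2 largest and 2 smallest called log2FC of each regulator list in LPS+TBHQ against LPS and PIC+TBHQ against PIC. *S100a8*, *Lyz2* and *Zbtb46* are named as the most abundant markers of their lists, *Fcgr1* and *Csf1r* as the macrophage markers with the lowest and highest log2FC with TBHQ within a stimulus and *Mertk* as the one not tested. Some genes that this rule covers are not reported here. Protein sequences were not used here.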

Additional observations from a re-analysis of the deposited data

Results flagged for a closer look

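The effect of TBHQ differed between the 2 stimuli for 3 of the 9 CC chemokine genes by the test of the difference itself, in edgeR's fit over all genes. Among all genes tested, 1.01% were called lower and 0.825% higher by this test. On the log2 scale, the effect in PIC minus the effect in LPS was -0.35 for *Ccl3*, -0.30 for *Ccl4* and 0.62 for *Ccl5*. The calls were not stable: all 3 were lost with limma on log2(FPKM + 0.1), at FDRs of 0.0788, 0.182 and 0.067. *Ccl3* was also lost with limma on log2(FPKM + 1) (FDR = 0.0712), and *Ccl4* with it (FDR = 0.17), with DESeq2 (FDR = 0.088) and without LPS+TBHQ replicate 1 or PIC+TBHQ replicate 2 or 3 (FDRs of 0.0507 to 0.0653). In edgeR's fit, *Ccl3* and *Ccl4* lost more with PIC, where they stood higher, and *Ccl5* lost more with LPS, where it stood lower. The doses of the 2 stimuli are not matched, and the part of stimulus strength in these differences was not tested.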

How the results depend on the processing

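Of 1375 values of single members under another setting, 1321 kept their direction and their side of the threshold, 36 lost the call, 9 gained it and 9 changed sign, of which 0 were called values. The changes of sign concerned TBHQ against the control without control replicate 1 (*Ccl4* 0.0059, *Ccl5* 0.0023, *Ccl7* 0.030, *Ccl12* 0.32), without control replicate 2 (*Ccl7* 0.011) and without TBHQ replicate 1 (*Ccl7* 0.041), *Ccl6* in LPS+TBHQ against the control without LPS+TBHQ replicate 1 (-0.039), and *Ccl12* in the difference between the TBHQ effects with limma on log2(FPKM + 1) (-0.24) or without LPS+TBHQ replicate 1 (-0.15). At the other end, TBHQ against the control gave -0.20 for *Ccl4* and -0.23 for *Ccl7* without control replicate 3, and -0.27 for *Ccl5* and -1.48 for *Ccl12*, which had at most 3 counts, without control replicate 2. Without LPS+TBHQ replicate 3, *Ccl6* in LPS+TBHQ against the control gave 0.57 and *Ccl12* in the difference between the TBHQ effects 0.92.

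For TBHQ against the control, the 2 members higher became 1 with DESeq2 and with limma on either scale, 0 at the stricter limits of the methods (FDR under 0.01, |log2FC| over 2), and 1 to 2 on leaving out a library. The 1 member lower became 2 with no filter and with limma on log2(FPKM + 0.1), 0 at the stricter limits, and 1 to 2 on leaving out a library. At the stricter limits the 7 members higher in LPS+TBHQ became 4. For the difference between the TBHQ effects, the 1 member higher became 0 with limma on log2(FPKM + 0.1), and the 2 lower became 1 with DESeq2, 0 with limma on either scale, and 1 to 2 on leaving out a library. The cause was not tested. Over all genes this difference gave 251 calls, 380 with no filter and 147 with limma on log2(FPKM + 0.1), and 160 without LPS+TBHQ replicate 2. A mean of at least 50 counts removed *Ccl6* and *Ccl12*, which few counts limit most.

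With the replicate block, 9 members were lower with TBHQ in each stimulus, as without it, and the counts of members called were equal in all 10 comparisons. Same-numbered libraries correlated by -0.0717 to 0.142 over 45 pairs (2 above 0.1), with a median of 0.0261. Different-numbered libraries correlated by -0.165 to 0.1245 over 90 pairs (1 above 0.1), with a median of -0.0113. A clear pairing by replicate number was not seen, but weak correlations cannot show that libraries were set up separately.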
